A study of Mus musculus with 30 samples.

Results

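Cell cultures labelled as mouse leg muscle were compared at 48 h and at 0 h on a 2-chip Affymetrix oligonucleotide array set, whose chips are called A and B. The comparison used the 12 arrays that the labels place at 0 h or 48 h, of 30 in the series: 3 replicates at each hour, with 1 array of each chip per replicate. The remaining arrays, from 4, 12 and 24 h, entered the statistical fits as further hours. All groups share one description, total RNA from cultured cells of Mus musculus leg muscle, and differ only in the hour. Strain, age, medium, treatment, the event at 0 h and the number of animals behind a culture are not stated in the labels. Nor do they say that replicates were separate cultures or animals, so p-values here reflect array-to-array spread, possibly technical in origin. The comparison therefore addresses which transcripts differed between the hours. Replicate 3 is also treated as a batch of its own, since its arrays stood apart from the others.

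In culture, skeletal muscle cells can leave the cell cycle, fuse into multinucleate myotubes and build sarcomeres. The bHLH factors Myf5 and Myod1 mark committed myoblasts, myogenin (Myog) starts terminal differentiation, and Mef2 factors act with them on muscle genes. Id proteins bind the partners of these bHLH factors and hold differentiation back, and Notch signalling keeps precursors undifferentiated. A sarcomere consists of myosin thick filaments, actin thin filaments, Z-discs that anchor the thin filaments, M-bands and the spring protein titin. Calcium released from the sarcoplasmic reticulum drives its contraction.

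Promoter windows of a few genes with large changes are printed first because they hold short motifs tied to these factors. The motifs were the E-box form CAGCTG, bound by myogenic bHLH factors, and the MEF2 form CTANNNNTAG. For genes that fell, a further motif was TTTGAA, found in many cell cycle promoters and known as CHR. Both strands were searched over the 250 bases before the start site, in RefSeq promoters of GRCm38.p6. The windows below read 5′ to 3′ along the gene, and capitals mark the motifs.
Lmcd1, chr6:112273508-112273757, plus strand: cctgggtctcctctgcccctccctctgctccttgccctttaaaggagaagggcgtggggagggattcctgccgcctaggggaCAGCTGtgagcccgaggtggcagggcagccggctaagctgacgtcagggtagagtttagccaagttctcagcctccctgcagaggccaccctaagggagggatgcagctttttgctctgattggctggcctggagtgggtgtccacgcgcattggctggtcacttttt
Myoz2, chr3:123034988-123035237, minus strand: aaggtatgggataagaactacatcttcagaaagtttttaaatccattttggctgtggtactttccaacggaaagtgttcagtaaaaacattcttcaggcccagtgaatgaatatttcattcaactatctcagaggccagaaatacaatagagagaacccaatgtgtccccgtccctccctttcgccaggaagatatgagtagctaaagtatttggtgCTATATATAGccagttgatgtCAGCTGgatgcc
Casq1, chr1:172219896-172220145, minus strand: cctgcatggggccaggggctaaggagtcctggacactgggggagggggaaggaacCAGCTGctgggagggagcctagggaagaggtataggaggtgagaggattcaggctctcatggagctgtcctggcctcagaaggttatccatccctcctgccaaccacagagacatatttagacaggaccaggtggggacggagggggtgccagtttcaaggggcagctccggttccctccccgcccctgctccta
Islr, chr9:58158555-58158804, minus strand: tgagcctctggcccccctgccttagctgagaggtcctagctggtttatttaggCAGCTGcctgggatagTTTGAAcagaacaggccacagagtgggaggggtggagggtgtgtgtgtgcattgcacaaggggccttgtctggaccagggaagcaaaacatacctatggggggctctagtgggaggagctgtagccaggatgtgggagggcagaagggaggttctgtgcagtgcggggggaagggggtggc
Atoh8, chr6:72235578-72235827, minus strand: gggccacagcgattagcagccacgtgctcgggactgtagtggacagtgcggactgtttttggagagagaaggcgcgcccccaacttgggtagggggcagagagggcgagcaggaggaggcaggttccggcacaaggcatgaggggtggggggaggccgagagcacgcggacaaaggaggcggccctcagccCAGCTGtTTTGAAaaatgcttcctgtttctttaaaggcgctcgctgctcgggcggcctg
Lmcd1 carried an E-box at -168 to -163 from the start site and Casq1 one at -195 to -190. In Myoz2 the MEF2 form lay at -33 to -24 and an E-box at -12 to -7. Islr had an E-box at -197 to -192 and the CHR letters at -181 to -176, and Atoh8 an E-box at -59 to -54 and the CHR letters at -52 to -47. These 5 genes were picked for holding a motif, so the sequences describe them and test nothing. Of the 21 genes with the largest rises, 16 had a listed promoter and 7 of those held an E-box or MEF2 form. Of the 21 with the largest falls, 15 had one and 7 held any of the 3 motifs. Of all genes with a listed promoter, 17.8% held an E-box or MEF2 form in at least 1 promoter and 32.9% any of the 3. Across 32851 listed promoters the E-box form occurred in 13%, the MEF2 form in 3.2%, either of these in 15.8%, and the CHR letters in 16%.

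The arrays were scaled alike. Trimmed mean intensities were 500.1 to 500.2 on A and 500.1 on B, the A medians were between 154.7 and 183.4, the B medians between 220 and 256.2, and no arrays were identical. Replicate 3 differed more from replicates 1 and 2 than those did from each other. On A at 48 h the standard deviation of the log2 difference over probe sets was 0.329 between replicates 1 and 2, and 0.568 and 0.519 between each of them and replicate 3. At 0 h the same values were 0.338, 0.516 and 0.505, and on B all 3 pairs differed by 0.47 to 0.634. Only 3 arrays an hour on each chip limit the precision, and an exact permutation test of 3 against 3 arrays cannot give a p under 0.1. Calls therefore rest on a limma fit that pools the spread over probe sets and hours, with Benjamini-Hochberg adjustment over each chip. Throughout, a log2 change is the 48 h mean minus the 0 h mean of log2(intensity + pseudocount), the pseudocount being 29.4 on A and 54.4 on B. It understates the change of dim genes. The ± after it is its standard error in the fit by hour alone, also where an adjusted p from another fit stands beside it. After a difference in change between replicates, the ± comes from the fit that tests that difference. Individual intensities are in scaled array units and follow the order replicate 1, 2, 3.

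The muscle label was checked against marker genes. All 9 skeletal muscle markers were bright enough to test, with a summed intensity of 47559 to 55286 at 0 h and 40453 to 64844 at 48 h, replicate 3 having the lowest sum at each hour. For fibroblasts 2 of 9 markers on the arrays were tested, for endothelial cells 3 of 10, for leukocytes and macrophages 3 of 10 and for erythroid cells 1 of 4. The others, with Pdgfra, Pecam1, Cdh5, Ptprc and Hba-a1 among them, were in the dimmest 40% of probe sets. The fibroblast sum was 448.4, 530.7 and 1322 at 0 h and 689.4, 495.5 and 1493 at 48 h, so replicate 3, where contractile genes changed least, had the highest value at each hour. Its part in that difference was not tested. The other 3 sums lay between 123.5 and 833.3 at 0 h and between 133.8 and 1057 at 48 h.

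By hour alone, 292 of 13575 tested probe sets on A were called at 48 h against 0 h, 2.15%, of which 193 were higher and 99 lower. On B 152 of 13506 were called, 1.13%, 90 higher and 62 lower. With median centring of the arrays, which shifted A by -0.06, the split on A became 128 higher and 128 lower. On B, shifted by -0.07, it became 77 and 78. With replicate 3 as a batch term, the calls were 1329 on A (9.79%, 692 higher and 637 lower) and 708 on B (5.24%, 354 each way). Median centring turned those splits into 534 higher and 868 lower on A, and 265 and 452 on B. The replicate number used as a block gave 1224 calls on A, and a fit of replicates 1 and 2 alone called 1678 on A and 854 on B. Replicates 1 and 2 carried the calls by hour alone. Without 0 h replicate 1, 0 h replicate 2, 48 h replicate 1 or 48 h replicate 2 the A chip kept 62, 44, 48 and 54 calls. Without replicate 3 it had 333 at 0 h and 431 at 48 h. On B the same 6 fits gave 18, 11, 48 and 15 calls, and 177 and 267.

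Counted by gene, with 1 probe set for each of 12446 genes, 161 genes were called higher by hour alone (1.29%) and 93 lower (0.747%). The batch term gave 508 higher (4.08%) and 599 lower (4.81%). With the replicate number as a block 472 were higher (3.79%) and 554 lower (4.45%), and replicates 1 and 2 alone gave 658 higher (5.29%) and 799 lower (6.42%). The median log2 change over all genes was -0.03. All 292 and 152 called probe sets had arrays at 48 h that did not overlap those at 0 h, as did 2476 tested probe sets on A and 2689 on B in all. A called probe set without overlap must move in the same direction in replicate 3, so that direction is no further evidence. Of the called probe sets 235 on A and 112 on B moved less in replicate 3. Genes called higher had a median log2 difference of 1.57 in replicates 1 and 2 and of 0.67 in replicate 3. For genes called lower the medians were -1.08 and -0.80.

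**Figure D1:**
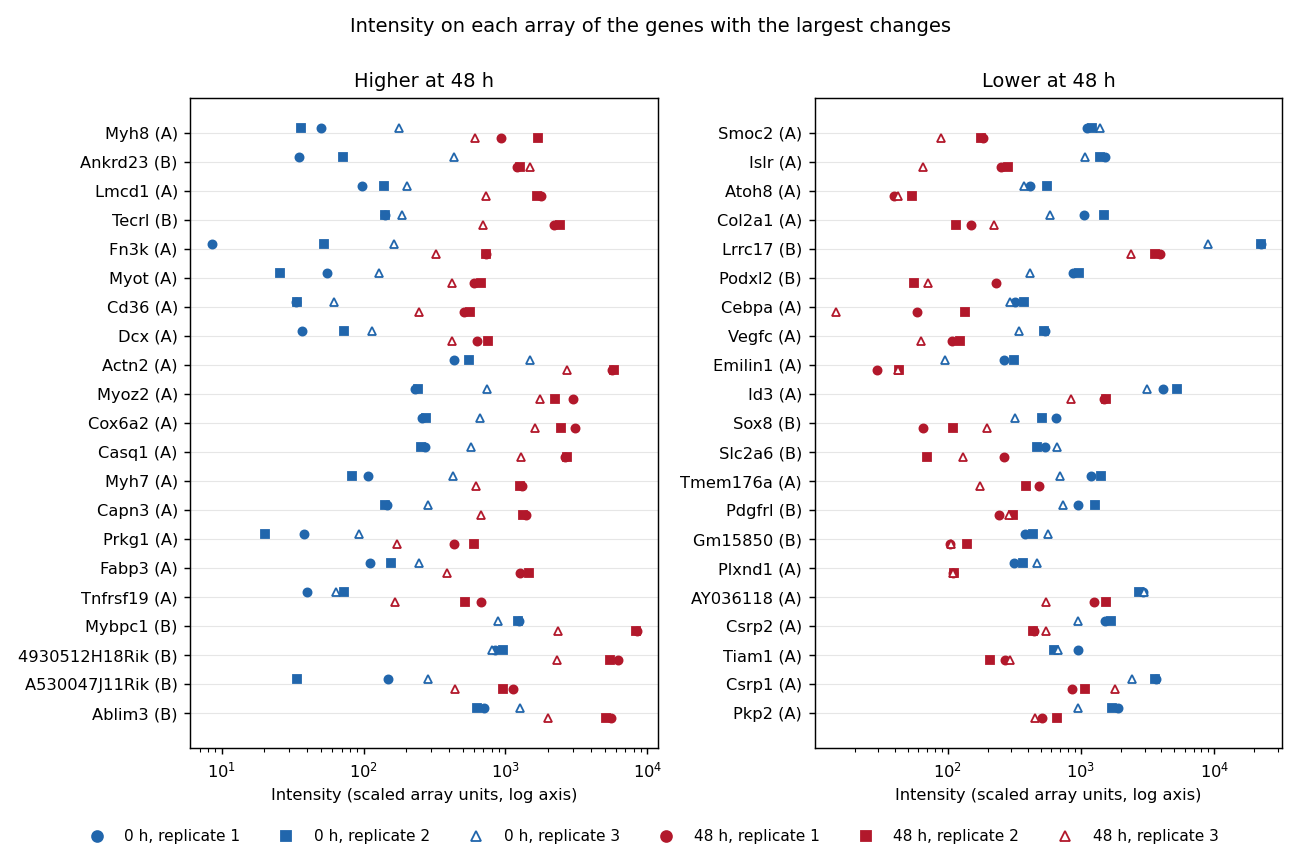
Intensity on each array (log axis) of the 21 genes with the largest rises (left) and the 21 with the largest falls (right) among those called by hour alone, with the chip in brackets. Blue points are 0 h and red points 48 h, and open triangles are replicate 3. All 42 genes were chosen from those whose points at the 2 hours do not overlap. Replicate 3 lies below both other replicates at 48 h in 20 of the 21 rises.

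Contractile genes were called higher more often than genes at large. Over 6 sarcomere lists with 83 genes on the arrays, 70 passed the filter on low values, and 31 of these rose by hour alone and 0 fell. Of all genes 1.29% rose and 0.747% fell. At an unadjusted p under 0.05 no sarcomere gene was lower in any of the 6 lists. Adding the batch term gave 41 rises and 2 falls, with the replicate block 40 and 1, and in replicates 1 and 2 alone 49 and 1. The median log2 change was 0.86, made of a median of 1.13 in replicates 1 and 2 and 0.20 in replicate 3. At 0 h replicate 3 was above both other replicates for 43 of the 70 genes, and at 48 h it was below both for 62. Over all 12446 genes these counts were 4894 and 5021. Without 0 h replicate 1 or 2, 7 and 6 of the 70 rose, and without 48 h replicate 1 or 2, 8 and 7. Without replicate 3 at 0 h or 48 h 28 and 37 rose. Actn2, Capn3, Hspb7, Lmcd1, Myom2 and Smpx were called in all 6 of these fits. In bulk RNA a change in the share of muscle cells and a change in RNA per cell cannot be told apart.

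Thick filament genes included fetal, slow and fast isoforms. Myh8, the perinatal myosin heavy chain, read 49.7, 36.2 and 177 at 0 h and 935, 1706 and 609 at 48 h. Its lowest array at 48 h was more than any at 0 h, and replicate 3 started highest and ended lowest. The change was 3.32 ± 0.56 (adjusted p = 0.0093), split into 4.17 in replicates 1 and 2 and 1.63 in replicate 3. Myh7, the slow and cardiac heavy chain, read 107, 82.8 and 424 at 0 h and 1310, 1273 and 625 at 48 h. Its groups did not overlap, but replicate 3 moved by 0.53 only, against 3.42 in the others, for a change of 2.45 ± 0.50 (adjusted p = 0.022). Embryonic Myh3, already bright at 0 h at 3624, 3367 and 5236, reached 10662, 10251 and 5869 and rose by 1.10 ± 0.20 (adjusted p = 0.012). Nearly all of that came from replicates 1 and 2, as replicate 3 moved by 0.16. The adult fast heavy chain Myh1 rose by 1.62 ± 0.28 (adjusted p = 0.0093). Mybpc1, the slow myosin-binding protein C, read 1237, 1225 and 889 at 0 h and 8448, 8371 and 2337 at 48 h on B and rose by 2.26 ± 0.45 (adjusted p = 0.025). Here replicate 3 was the lowest array at both hours. Of its 2 other probe sets on B, 1 was called at 2.10 (adjusted p = 0.021) and 1 was not, at 1.93 (adjusted p = 0.07). Among light chains, Myl4, the embryonic and atrial form, rose by 1.47 ± 0.30 (adjusted p = 0.023). A further Myl4 probe set changed by 1.01 with an adjusted p of 0.21.

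By list, the developmental isoforms had 5 of 7 members higher by hour alone (6 with the batch term), the adult fast ones 6 of 9 (7) and the slow or cardiac ones 4 of 6 (4). None fell in either fit. Their median changes were 1.01, 1.15 and 1.60, and in replicate 3 they were 0.20, 0.32 and 0.37. Among them were troponins, the calcium switch of the thin filament. The fast inhibitory subunit Tnni2 read 706, 736 and 2009 at 0 h and 6091, 4870 and 3546 at 48 h and rose by 2.18 ± 0.41 (adjusted p = 0.017). Its 48 h arrays lay above all 0 h arrays, with replicate 3 highest at 0 h and lowest at 48 h. Fast Tnnc2 rose by 1.91 ± 0.36, fast Tnnt3 by 1.15 ± 0.20, slow Tnnt1 by 0.95 ± 0.20 and slow Tnni1 by 1.01 ± 0.21 (adjusted p = 0.016, 0.012, 0.028 and 0.026). The skeletal actin gene Acta1, the main thin filament protein, read 8196, 10678 and 11393 at 0 h and 16998, 14203 and 11613 at 48 h. Its hours did not overlap, yet the change of 0.50 ± 0.14 was not called by hour alone (adjusted p = 0.1) and was with the batch term (adjusted p = 0.037) and the block (adjusted p = 0.047).

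Several Z-disc and titin-associated genes rose as well. Actn2, the alpha-actinin that cross-links actin at the Z-disc, read 431, 556 and 1481 at 0 h and 5667, 5788 and 2710 at 48 h. The rise was 2.60 ± 0.41 (adjusted p = 0.0058), with 3.47 in replicates 1 and 2 and 0.86 in replicate 3. Myot encodes the Z-disc protein myotilin and read 54.9, 25.7 and 128 at 0 h and 601, 674 and 420.1 at 48 h. It rose by 2.69 ± 0.49 (adjusted p = 0.013), and here too replicate 3 had the smallest step. Myoz2, the calcineurin-binding Z-disc protein whose window above holds both motifs, read 232, 240.2 and 746 at 0 h and 2991, 2229 and 1754 at 48 h. It rose by 2.60 ± 0.48 (adjusted p = 0.015) with no overlap between hours. Csrp3, the muscle LIM protein, read 416, 469.8 and 748 at 0 h and 1324, 1340 and 1537 at 48 h, with replicate 3 highest at both hours, and rose by 1.36 ± 0.22 (adjusted p = 0.0062). Of the 23 tested thin filament and Z-disc genes 6 rose by hour alone, and 12 rose and 1 fell with the batch term. Lmod2, which elongates thin filaments, read 224, 244 and 304 at 0 h and 1067, 1001 and 413 at 48 h and rose by 1.48 ± 0.30 (adjusted p = 0.022). Its replicate 3 arrays were the highest at 0 h and the lowest at 48 h. Titin and M-band genes had 7 of 12 higher (8 with the batch term). Among them the M-band protein Myom2 rose by 2.24 ± 0.34, Myom3 by 1.36 ± 0.28 and Smpx, a small stretch-linked protein, by 1.60 ± 0.23 (adjusted p = 0.0041, 0.03 and 0.0028).

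The titin-binding ankyrin repeat protein Ankrd23 read 34.9, 71.5 and 436 at 0 h and 1212, 1274 and 1487 at 48 h on B. Of the 21 largest rises it was the one in which replicate 3 was the highest array at 48 h, and replicate 3 was also far above the others at 0 h. Its change was 2.96 ± 0.62 (adjusted p = 0.033). Its relative Ankrd2 rose by 1.03 ± 0.21 (adjusted p = 0.022). Lmcd1, a LIM protein that acts in calcineurin signalling of striated muscle, read 97.4, 140.2 and 202 at 0 h and 1777, 1661 and 727 at 48 h and rose by 2.95 ± 0.36 (adjusted p = 0.0022). No array at 48 h was near the 0 h range, though the step in replicate 3 was 1.71 against 3.58. Capn3, the muscle calpain that binds titin, read 145, 142 and 285 at 0 h and 1391, 1333 and 675 at 48 h and rose by 2.39 ± 0.34 (adjusted p = 0.0028). The small heat shock protein Hspb7 rose by 1.94 ± 0.30 (adjusted p = 0.0043). In the assembly and turnover list 3 of 13 genes rose by hour alone. With the batch term 4 rose and 1 fell, the added rise being Klhl41, a stabiliser of nebulin, which read 5150, 3888 and 3158 at 0 h and 13907, 12654 and 3863 at 48 h and changed by 1.13 ± 0.41 (adjusted p = 0.043, and 0.22 by hour alone).

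Genes of excitation-contraction coupling, which link the membrane signal to calcium release, had 8 of 23 tested members higher by hour alone and 13 with the batch term or the block, with 0 lower. In replicates 1 and 2 alone 17 rose. The median change was 0.80, or 1.12 in replicates 1 and 2 and 0.12 in replicate 3, which lay below both other replicates for all 23 genes at 48 h. Without 0 h or 48 h replicate 1 or 2 a single gene was called, and without replicate 3 at 0 h or 48 h 7 and 12. Casq1, the fast-muscle calsequestrin that buffers calcium in the sarcoplasmic reticulum, read 272, 253 and 568 at 0 h and 2618, 2725 and 1285 at 48 h. It rose by 2.52 ± 0.47 (adjusted p = 0.016), and replicate 3 had the narrowest gap. Casq2, the cardiac and slow form, rose by 1.83 ± 0.31 (adjusted p = 0.0089). Triadin (Trdn), which anchors calsequestrin to the release channel, read 112, 53.5 and 109 at 0 h and 899, 452 and 335 at 48 h and rose by 2.22 ± 0.31 (adjusted p = 0.0028). It was called with any single array left out. Of its 2 other probe sets, 1 was called at 2.44 and 1 was not, at 0.67 (adjusted p = 0.32). Sarcolipin (Sln), an inhibitor of the calcium pump, rose by 1.51 ± 0.32 (adjusted p = 0.026).

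Muscle isoforms of energy supply followed, with 7 of 20 tested genes higher and 0 lower by hour alone, and 10 higher with the batch term or the block. The median change was 0.66, with 0.96 in replicates 1 and 2 and 0.05 in replicate 3. Leaving out 0 h replicate 1 or 2 kept 2 calls each and leaving out 48 h replicate 1 or 2 kept 1 each, against 7 and 8 without replicate 3. Cox6a2, the striated muscle subunit of cytochrome c oxidase, read 259, 275 and 658 at 0 h and 3086, 2449 and 1618 at 48 h. The hours were well apart and it rose by 2.57 ± 0.33 (adjusted p = 0.0022), a call that every left-out array kept. Cox8b, another muscle subunit of that enzyme, rose by 1.99 ± 0.38 (adjusted p = 0.017). Fabp3, the fatty acid carrier of heart and slow muscle, read 110.3, 156 and 245 at 0 h and 1256, 1474 and 389 at 48 h and rose by 2.28 ± 0.44 (adjusted p = 0.017). Its step in replicate 3 was 0.61 against 3.11, and another probe set, on B, changed by 0.01 with an adjusted p of 0.99. Pygm, the muscle glycogen phosphorylase, rose by 1.19 ± 0.20 (adjusted p = 0.0085). Muscle creatine kinase (Ckm), which regenerates ATP, read 676, 756 and 1338 at 0 h and 1226, 1383 and 1192 at 48 h. These hours overlapped, and the change of 0.51 ± 0.34 had an adjusted p of 0.54, or 0.26 with the batch term. Its probe set on B changed by -0.27 (adjusted p = 0.58).

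Cd36, the membrane fatty acid transporter, read 33.2, 34.2 and 62 at 0 h and 512, 559 and 246 at 48 h and rose by 2.64 ± 0.33 (adjusted p = 0.0022). Every array at 48 h was clear of every array at 0 h, and no single array decided the call. In the rest of the fatty acid uptake and oxidation list, none of the others rose by hour alone. Echs1, a beta-oxidation hydratase, fell by 0.80 ± 0.15 (adjusted p = 0.013), and the median of the 22 was -0.18. Adding the batch term gave 3 falls, among them Pdk4, the kinase that shuts off pyruvate entry, at -1.30 ± 0.47 (adjusted p = 4.5e-05, and 0.2 by hour alone).

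**Figure D2:**
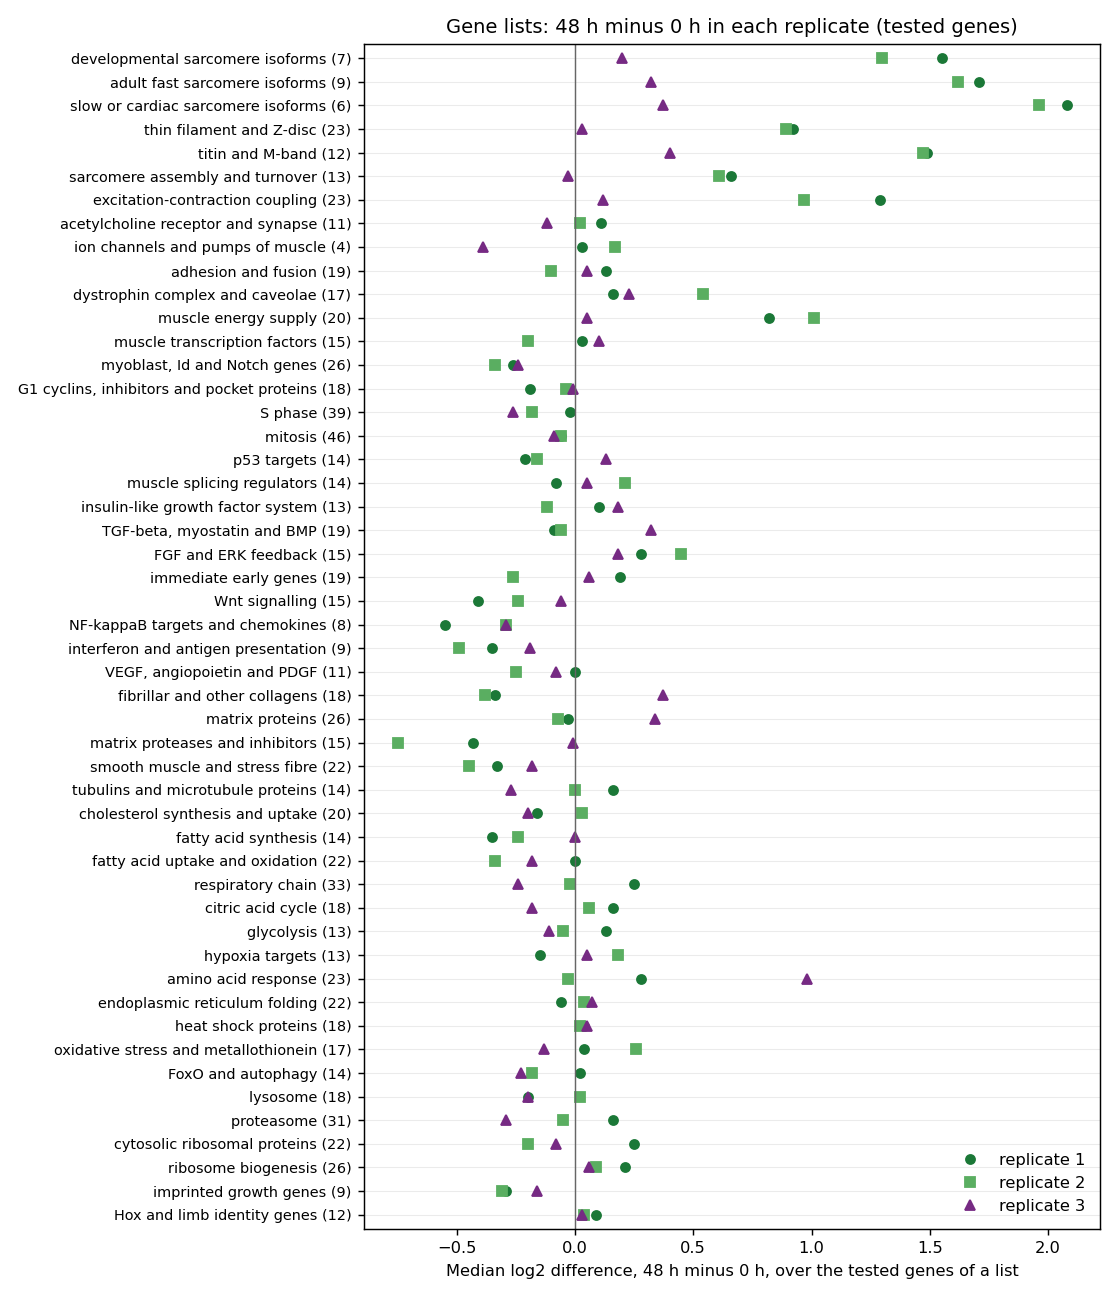
Median log2 difference between 48 h and 0 h over the tested genes of each of the 50 lists, separately for replicates 1, 2 and 3 (number of tested genes in brackets). The sarcomere, coupling and energy lists have lower medians in replicate 3 (-0.03 to 0.40) than in replicates 1 and 2, and the amino acid response list is at 0.28, -0.03 and 0.98 in replicates 1, 2 and 3.

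Other muscle membrane lists showed fewer calls. In the dystrophin complex and caveolae list 3 of 17 genes rose by hour alone and 6 with the batch term. Cav3, the muscle caveolin, read 498, 605 and 812 at 0 h and 3076, 2610 and 1433 at 48 h and rose by 1.80 ± 0.34 (adjusted p = 0.017), with no overlap between hours. Cavin4, a muscle caveolar coat protein, rose by 0.77 ± 0.18 (adjusted p = 0.039). Dtna, a dystrophin-binding dystrobrevin, rose by 0.80 ± 0.18 (adjusted p = 0.039) in its brightest probe set and by 0.99 (adjusted p = 0.032) in another. Its 4 remaining probe sets were not called, with 0.66, 0.16, 0.09 and -0.12. Dystrophin itself (Dmd) changed by 1.40 ± 0.38 (adjusted p = 0.075, and 0.019 with the batch term). Among acetylcholine receptor and synapse genes 2 of 11 rose. Erbb3, a neuregulin receptor, rose by 1.07 ± 0.23 and the kinase Nrk by 1.33 ± 0.22 (adjusted p = 0.026 and 0.0084). The receptor subunit Chrna1 read 10119, 10689 and 7859 at 0 h and 10932, 9509 and 6505 at 48 h, overlapping hours with a change of -0.11 ± 0.17 (adjusted p = 0.83). Utrn, the dystrophin relative, changed by 0.47 ± 0.15 (adjusted p = 0.14), and by 0.96 with an adjusted p of 0.047 in another probe set. Of 19 adhesion and fusion genes 1 rose, the cell adhesion molecule Ncam1, at 1.02 ± 0.22 (adjusted p = 0.031). Mymk, the fusion protein myomaker, read 5280, 4449 and 5244 at 0 h and 8279, 6839 and 5054 at 48 h and changed by 0.40 ± 0.17 (adjusted p = 0.29). For Ncam1, 5 other probe sets were not called by hour alone and ranged from -0.42 to 1.19. With the batch term those at 1.19 and 0.98 were called higher and that at -0.42 was called lower (adjusted p = 0.0011, 0.0445 and 0.034). None of 4 tested muscle ion channel and pump genes was called by hour alone, and 1 was lower at an unadjusted p under 0.05 and with the batch term.

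Among the transcription factors of muscle, 1 of 15 rose and 1 fell by hour alone, and 1 rose and 3 fell with the batch term. Mef2c, a MADS factor of muscle genes, read 966, 811 and 1668 at 0 h and 5520, 5978 and 2925 at 48 h. All 48 h arrays exceeded all 0 h arrays, and Mef2c rose by 2.04 ± 0.30 (adjusted p = 0.0031), with 2.66 in replicates 1 and 2 and 0.80 in replicate 3. Mef2a changed by -0.01 ± 0.28 and Mef2d by 0.27 ± 0.19 (adjusted p = 0.99 and 0.55). Myog read 10436, 10930 and 9594 at 0 h and 9456, 9480 and 6429 at 48 h. It was bright at both hours, with non-overlapping but close groups, and its change of -0.31 ± 0.13 was not called (adjusted p = 0.28, and 0.07 with the batch term). Myod1 read 8182, 9300 and 5693 at 0 h and 5735, 5316 and 3109 at 48 h, and each replicate was lower at 48 h than at 0 h. Its change of -0.73 ± 0.22 was not called by hour alone (adjusted p = 0.11) but was with the batch term (adjusted p = 0.0011) and the block (adjusted p = 0.0021). Myf5 read 518, 314 and 279 at 0 h and 89.6, 166 and 255 at 48 h and changed by -1.04 ± 0.30, with adjusted p = 0.099 and, with the batch term, 0.029. Myf6, a late bHLH factor, changed by 0.36 ± 0.53 (adjusted p = 0.82). Srf, the factor of actin genes, fell by 0.56 ± 0.12 (adjusted p = 0.032), though another probe set had -0.46 with an adjusted p of 0.23. Six4, a homeobox partner of myogenic genes, changed by -0.61 ± 0.17 in its brightest probe set (adjusted p = 0.081). Its 2 probe sets on B had -1.31 and -1.29 and were called, with adjusted p = 0.018 and 0.03.

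Of the genes that hold differentiation back, Id3 fell by hour alone. It read 4094, 5300 and 3119 at 0 h and 1480, 1534 and 845 at 48 h. The highest array at 48 h was below the lowest at 0 h, and Id3 fell by 1.69 ± 0.23 (adjusted p = 0.0028), a call that each left-out array kept. Id1 read 4610, 5918 and 3883 at 0 h and 2393, 2600 and 1240 at 48 h, with separate hours and a change of -1.25 ± 0.31 that was just not called by hour alone (adjusted p = 0.051, and 8.7e-05 with the batch term). Id2 changed by -1.27 ± 0.34 (adjusted p = 0.076, and 0.0014 with the batch term). In the list of 26 tested myoblast, Id and Notch genes 1 rose and 1 fell by hour alone, and 2 rose and 10 fell with the batch term (2 and 9 with the block). The list median was -0.21, with -0.32 in replicates 1 and 2 and -0.24 in replicate 3, and in 0 of the 26 was the difference in change between replicate 3 and the others called. The gene that rose was Spry1, an inhibitor of receptor tyrosine kinase signalling, at 1.09 ± 0.21 (adjusted p = 0.017). It moved more in replicate 3 (1.78) than in the others (0.75). The Notch target Hes1 read 419, 616 and 508 at 0 h and 467, 524 and 532 at 48 h, with overlapping hours and an adjusted p of 0.995. The satellite cell factor Pax7 changed by -0.43 ± 0.30 (adjusted p = 0.57, and 0.11 with the batch term). Another Pax7 probe set, on B, changed by -1.22 and was called with the batch term (adjusted p = 0.014, and 0.22 by hour alone). Cxcr4, the chemokine receptor of migrating precursors, read 1613, 1286 and 426 at 0 h and 203, 231 and 44.2 at 48 h. The hours did not overlap, and replicate 3 was lowest at both. It changed by -2.60 ± 0.73 with adjusted p = 0.087 by hour alone and 1.2e-06 with the batch term.

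Cell cycle genes gave no call by hour alone: 0 of 39 S phase genes, 0 of 46 mitosis genes and 0 of 18 G1 genes. Of all genes 1.29% rose and 0.747% fell in that fit. At an unadjusted p under 0.05 the limma test gave 3, 2 and 1 lower and none higher in these lists. Of all genes 4.08% rose and 4.81% fell with the batch term, which gave 2 falls in each of the 3 lists and 0 rises. Among these were Rrm2, the ribonucleotide reductase subunit, at -0.66 ± 0.22, and Spc24, a kinetochore protein, at -1.36 ± 0.51 (adjusted p = 0.0095 and 0.0044 with the batch term, 0.16 and 0.23 by hour alone). The lists' median changes were -0.15 for S phase, -0.08 for mitosis and 0.03 for G1. Replicate 3 was higher than the others at both hours, by a median of 0.85 at 0 h and 0.68 at 48 h in S phase genes and of 0.85 and 0.83 in mitosis genes. Ccne1, the cyclin of S phase entry, changed by -0.60 ± 0.21 (adjusted p = 0.049 with the batch term, 0.19 without). Top2a, the topoisomerase of dividing cells, read 921, 953 and 2234 at 0 h and 1011, 1042 and 2187 at 48 h. Replicate 3 had the high value at each hour, and the change was 0.08 ± 0.59 (adjusted p = 0.97). Ccnd1, Ccnd2 and Ccnd3, the D cyclins, changed by 0.07 ± 0.25, 0.06 ± 0.30 and 0.11 ± 0.15 (adjusted p = 0.94, 0.96 and 0.8). The Cdk inhibitor Cdkn1a read 9266, 9860 and 7880 at 0 h and 10752, 9476 and 6530 at 48 h and changed by -0.04 ± 0.17, and the pocket protein gene Rb1 by 0.04 ± 0.31 (adjusted p = 0.95 and 0.98). Cdkn1c, an imprinted Cdk inhibitor, read 2592, 2248 and 964 at 0 h and 1273, 1315 and 1077 at 48 h with overlapping hours and a change of -0.54 ± 0.52 (adjusted p = 0.7).

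The largest falls included several secreted and matrix genes. Smoc2, a secreted calcium-binding matrix protein, read 1113, 1209 and 1388 at 0 h and 183, 177 and 88.5 at 48 h. The drop was seen in every replicate and was widest in replicate 3, and Smoc2 fell by 2.87 ± 0.31 (adjusted p = 0.0007). Islr, a leucine-rich secreted protein of stromal cells, read 1509, 1383 and 1065 at 0 h and 253, 286 and 65.5 at 48 h and fell by 2.71 ± 0.35 (adjusted p = 0.0022). Here again replicate 3 dropped most, to the lowest level of the 6 arrays. Emilin1, a glycoprotein of elastic fibres, read 265, 315 and 95.7 at 0 h and 29.4, 43.3 and 42.7 at 48 h and fell by 1.79 ± 0.36 (adjusted p = 0.021), with replicate 3 low already at 0 h. These 3 were the called members of the 26 tested matrix proteins, and with the batch term 4 rose and 4 fell. The list median was 0.06, and it was 0.34 in replicate 3. Without 0 h or 48 h replicate 1 or 2 the call of Emilin1 was lost. Col2a1, the cartilage collagen, read 1056, 1494 and 589 at 0 h and 148, 116 and 222 at 48 h. It fell by 2.43 ± 0.40 (adjusted p = 0.0083) and was the only called gene of 18 collagens, whose median was -0.29 in replicates 1 and 2 and 0.37 in replicate 3. Lrrc17, a secreted leucine-rich protein on B, read 22509, 22387 and 8904 at 0 h and 3910, 3610 and 2375 at 48 h. It fell by 2.33 ± 0.36 (adjusted p = 0.009), and replicate 3 was lowest at both hours. Pdgfrl, a PDGF receptor-like secreted protein, read 952, 1266 and 735 at 0 h and 241, 312 and 291 at 48 h and fell by 1.60 ± 0.21 (adjusted p = 0.0038). The tendon and cartilage marker sum, which includes Col2a1, moved with these genes. With 4 of 8 markers tested it was 1824, 2515 and 1590 at 0 h and 1099, 938.6 and 1076 at 48 h, and its part in the falls was not tested. None of 15 matrix proteases and inhibitors was called by hour alone. At an unadjusted p under 0.05 2 were higher and 3 lower, the same counts as with the batch term. Adamts1, a protease of proteoglycans, read 299, 309.5 and 459.8 at 0 h and 692, 597 and 1528 at 48 h and changed by 1.23 ± 0.44 (adjusted p = 0.00014 with the batch term, 0.19 without). The inhibitor Timp2 changed by -0.52 ± 0.19 (adjusted p = 0.012 and 0.21), and its probe sets at -0.40 and -0.33 were not called in either fit. Of the matrix proteins, the basement membrane gene Nid2 read 739, 779.7 and 870.4 at 0 h and 1290, 1540 and 1106 at 48 h and changed by 0.69 ± 0.19 (adjusted p = 0.011 and 0.082).

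The largest falls also included the following genes. Atoh8, a bHLH factor, read 412, 560.2 and 374 at 0 h and 39.7, 53.9 and 42.3 at 48 h and fell by 2.66 ± 0.27 (adjusted p = 0.00049). All arrays at 48 h were between 39.7 and 53.9, and the steps were -2.75 in replicates 1 and 2 and -2.49 in replicate 3. Vegfc, the lymphatic growth factor, read 537, 528 and 342 at 0 h and 107, 123 and 62.7 at 48 h and fell by 1.98 ± 0.28 (adjusted p = 0.0028), the one called gene of 11 in its list. Plxnd1, a semaphorin receptor, read 314, 368 and 470.4 at 0 h and 110.5, 112 and 109 at 48 h. Its 48 h arrays were nearly equal and it fell by 1.55 ± 0.20 (adjusted p = 0.0022). Tiam1, an activator of the GTPase Rac, fell by 1.43 ± 0.21 (adjusted p = 0.0037). The adipogenic factor Cebpa read 319.8, 376 and 291 at 0 h and 58.5, 134 and 14.5 at 48 h and fell by 2.06 ± 0.35 (adjusted p = 0.0099). The spread at 48 h was wide, and replicate 3 was the lowest array. Cebpa is 1 of the 2 adipocyte markers tested, of 7 on the arrays, whose sum went from 809.4, 867.4 and 507 at 0 h to 355.6, 338.6 and 276.4 at 48 h. Adipoq and Pparg were too dim to test, and the part of adipocytes was not tested. Sox8, an HMG-box factor, read 647, 506 and 322 at 0 h and 65.1, 109.7 and 199 at 48 h on B and fell by 1.63 ± 0.35 (adjusted p = 0.034), with replicate 3 lowest at 0 h and highest at 48 h.

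Immediate early genes, which respond to growth signals within minutes, had 2 of 19 members lower and 0 higher by hour alone, and 1 higher and 4 lower with the batch term. Jun read 5419, 5389 and 5672 at 0 h and 3318, 3527 and 3390 at 48 h, nearly the same in all replicates at each hour, and fell by 0.68 ± 0.09 (adjusted p = 0.0022). Junb read 949.9, 1110 and 973 at 0 h and 469, 322 and 499.5 at 48 h and fell by 1.20 ± 0.17 (adjusted p = 0.0028). Both stayed called with any single array left out. Nfkbia, the NF-kappaB inhibitor that is itself a target, fell by 0.83 ± 0.14 (adjusted p = 0.0098), the one called gene of 8 in its list. Of its 4 other probe sets 3 were called, at -1.10 to -1.20, and 1 was not, at -0.43 (adjusted p = 0.31). Of 9 interferon and antigen presentation genes 1 fell, Tapbp, a chaperone of MHC class I loading, at -1.19 ± 0.16 (adjusted p = 0.0028). B2m, the light chain of MHC class I, read 4562, 4059 and 4793 at 0 h and 2162, 2889 and 5055 at 48 h, down in replicates 1 and 2 and not in replicate 3, and changed by -0.49 ± 0.25 (adjusted p = 0.38). H2-D1, an MHC class I heavy chain, changed by -1.33 ± 0.33 (adjusted p = 0.0502), and another probe set was called at -1.25 (adjusted p = 0.046).

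Growth factor pathways gave few calls. Among 19 TGF-beta, myostatin and BMP genes 2 fell and 0 rose by hour alone: Ltbp2, a latent TGF-beta binding protein, at -1.31 ± 0.23 and the inhibitory Smad6 at -0.81 ± 0.19 (adjusted p = 0.0099 and 0.039). Tgfb3, a TGF-beta ligand, read 1273, 1255 and 1260 at 0 h and 2645, 2262 and 1655 at 48 h. The hours did not overlap, and its change of 0.75 ± 0.19 was called with the batch term (adjusted p = 0.0014, and 0.06 by hour alone). Of 13 insulin-like growth factor genes none was called by hour alone. At an unadjusted p under 0.05 2 were higher and 1 lower, and with the batch term 1 rose and 2 fell. Igfbp2, a binding protein of these factors, read 9117, 10025 and 3942 at 0 h and 4274, 4368 and 978 at 48 h, lowest in replicate 3 at both hours, and changed by -1.42 ± 0.66 (adjusted p = 4.6e-05 with the batch term, 0.34 without). Igf2, the fetal growth factor, read 9939, 11285 and 7457 at 0 h and 15284, 11016 and 7093 at 48 h and changed by 0.17 ± 0.27, and Igf1 by -0.13 ± 0.35 (adjusted p = 0.84 and 0.91). In the FGF and ERK feedback list 1 of 15 rose, Etv5, an ERK-induced ETS factor, at 0.74 ± 0.16 (adjusted p = 0.032). Its 2 other probe sets had 0.64 and 0.55 and were not called by hour alone. Adding the batch term gave 5 rises, including the ERK phosphatase Dusp6 at 1.21 ± 0.39 and the stress hormone Fgf21 at 0.64 ± 0.45 (adjusted p = 0.00029 and 0.044 with it, 0.15 and 0.56 without it). For Spred2, an ERK inhibitor, the brightest probe set changed by 0.36 ± 0.18 (adjusted p = 0.38), while 1 of its 2 others was called at 1.23 (adjusted p = 0.034). None of 15 Wnt genes was called by hour alone, with 1 higher and 2 lower at an unadjusted p under 0.05, and 1 fell with the batch term.

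Cytoskeletal and other falls came next. Csrp1, a LIM protein of actin bundles, read 3646, 3624 and 2411 at 0 h and 858, 1068 and 1788 at 48 h and fell by 1.40 ± 0.28 (adjusted p = 0.02). Replicate 3 started lower and ended higher than the others, with a step of -0.43 against -1.89. It was the only called gene of 22 in the smooth muscle and stress fibre list, where 3 fell with the batch term and 19 of 22 changes were negative. The pericyte and smooth muscle marker sum, with 4 of 8 markers tested, moved with it in replicates 1 and 2 only. It was 3387, 3356 and 1290 at 0 h and 1171, 1097 and 1307 at 48 h. Rgs5, a pericyte marker named after its values were seen, made up most of it in replicates 1 and 2 at 0 h and read 2519, 2450 and 118 at 0 h and 543, 586 and 43.3 at 48 h. The defining Myh11 and Pdgfrb were too dim to test, and the part of these cells was not tested. In the same list the smooth muscle actin gene Acta2 read 11585, 13520 and 10306 at 0 h and 11063, 8773 and 8121 at 48 h and changed by -0.34 ± 0.13, and Tagln, an actin-binding protein, by -0.47 ± 0.16 (adjusted p = 0.21 and 0.16). The relative of Csrp1, Csrp2, read 1512, 1674 and 948 at 0 h and 444, 437 and 543 at 48 h and fell by 1.45 ± 0.25 (adjusted p = 0.0093). Pkp2, a desmosomal plakophilin, read 1910, 1721 and 944 at 0 h and 512, 659.9 and 454 at 48 h and fell by 1.40 ± 0.29 (adjusted p = 0.026). The other Pkp2 probe set had -1.21 with an adjusted p of 0.058. Tmem176a, a membrane protein, and AY036118 fell, with changes of -1.61 ± 0.32 and -1.46 ± 0.28 (adjusted p = 0.02 and 0.018). On B the sialomucin gene Podxl2, the glucose transporter gene Slc2a6 and Gm15850 fell, with changes of -2.27 ± 0.48, -1.63 ± 0.33 and -1.58 ± 0.36 (adjusted p = 0.032, 0.027 and 0.049). Gm15850 lost its call in each of the 6 fits with an array left out. Of the 21 named falls, 10, 8, 12 and 11 were called without 0 h replicate 1, 0 h replicate 2, 48 h replicate 1 and 48 h replicate 2, and 19 and 18 without replicate 3 at 0 h and at 48 h.

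Rises outside the muscle lists were also found. Dcx, the microtubule-binding doublecortin best known from migrating neurons, read 36.6, 72.3 and 115 at 0 h and 627, 748 and 422 at 48 h and rose by 2.63 ± 0.47 (adjusted p = 0.012). It was the only gene of 14 in the tubulin and microtubule list called by hour alone. Fn3k, which removes sugar adducts from proteins, read 8.5, 52.9 and 165 at 0 h and 727, 725 and 325 at 48 h and rose by 2.79 ± 0.56 (adjusted p = 0.021). Its probe set on B changed by 1.10 with an adjusted p of 0.23. Prkg1, the cyclic GMP-dependent kinase, read 37.9, 20.3 and 92.4 at 0 h and 434, 598 and 173 at 48 h and rose by 2.39 ± 0.39 (adjusted p = 0.0068), with a step of 0.73 in replicate 3 against 3.22. Tnfrsf19, a receptor of the TNF family, read 39.8, 72.6 and 64.4 at 0 h and 668, 520.5 and 166 at 48 h and rose by 2.27 ± 0.36 (adjusted p = 0.0064). Replicate 3 at 48 h was the low array but still above every 0 h array. On B, Tecrl, a reductase-like gene of striated muscle, read 141, 142 and 187 at 0 h and 2213, 2405 and 697 at 48 h and rose by 2.94 ± 0.49 (adjusted p = 0.012). Ablim3, an actin-binding LIM protein, read 705, 631 and 1266 at 0 h and 5550, 5114 and 1978 at 48 h and rose by 2.14 ± 0.44 (adjusted p = 0.03). The uncharacterised 4930512H18Rik rose by 2.24 ± 0.30, with replicate 3 lowest at 48 h, and A530047J11Rik rose by 2.20 ± 0.42 (adjusted p = 0.0038 and 0.021). Of the 21 named rises, 8, 7, 8 and 8 were called without 0 h replicate 1, 0 h replicate 2, 48 h replicate 1 and 48 h replicate 2, and 20 each without replicate 3 at 0 h or at 48 h.

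In the heat shock list 2 of 18 genes rose and 0 fell by hour alone. They were the muscle small heat shock proteins Hspb3 at 1.65 ± 0.29 and Hspb2 at 1.26 ± 0.30 (adjusted p = 0.012 and 0.045). Hspb6, another small heat shock protein, changed by -0.67 ± 0.22 and was called with the batch term (adjusted p = 0.0021, and 0.16 by hour alone). In the amino acid response list, genes induced when amino acids are short, 1 of 23 rose by hour alone and 4 with the batch term. Slc7a5, a large amino acid transporter, read 595, 807 and 1671 at 0 h and 1961, 2020 and 3395 at 48 h and rose by 1.32 ± 0.30 (adjusted p = 0.039). The call was kept in 1 of the 6 fits with an array left out, the fit without 0 h replicate 3. Asparagine synthetase (Asns) changed by 0.62 ± 0.20 (adjusted p = 0.0037 with the batch term, 0.15 by hour alone). Of the 23 changes 22 were positive, and the median was 0.11 in replicates 1 and 2 and 0.98 in replicate 3.

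In all, 24 of the 50 lists gave no call by hour alone. Of the 460 different genes tested in them, the limma test gave 18 higher and 27 lower at an unadjusted p under 0.05, and 13 and 26 were called with the batch term. Over all 12446 genes 780 were higher and 1013 lower at that unadjusted level, and 4.08% and 4.81% were called with the batch term. These lists were picked for having no call, so low counts in them are no further evidence. None of 22 cytosolic ribosomal protein genes, 33 respiratory chain genes, 31 proteasome genes, 26 ribosome biogenesis genes, 22 endoplasmic reticulum folding genes or 18 lysosome genes passed. Their median changes lay between -0.19 and 0.12. None of 14 p53 targets, 20 cholesterol genes, 14 fatty acid synthesis genes, 13 glycolysis genes, 18 citric acid cycle genes, 14 muscle splicing regulators, 17 oxidative stress genes, 14 FoxO and autophagy genes, 13 hypoxia targets, 9 imprinted growth genes or 12 Hox and limb identity genes passed either. With the batch term 0 to 4 genes of each of these lists were called. Of the imprinted genes, Mest, a hydrolase-like gene, read 7954, 8181 and 2779 at 0 h and 3750, 3104 and 1224 at 48 h, with steps of -1.23 in replicates 1 and 2 and -1.16 in replicate 3 (adjusted p = 5.1e-05 with the batch term, 0.26 without). Dlk1, a membrane protein of the Notch ligand family, read 306, 330.4 and 156 at 0 h and 1828, 1629 and 156 at 48 h, so it went up in replicates 1 and 2 and stayed level in replicate 3 (adjusted p = 0.0075 and 0.39). Rpl4, a ribosomal protein gene, read 11344, 12171 and 11260 at 0 h and 14528, 11313 and 11379 at 48 h, overlapping hours with a change of 0.09 ± 0.11 (adjusted p = 0.76). Rbm24, a muscle splicing regulator that was bright on B, read 28647, 32676 and 18177 at 0 h and 15831, 14826 and 9807 at 48 h and changed by -0.96 ± 0.30 (adjusted p = 0.15, and 0.00013 with the batch term). Of its 4 other probe sets 2 were called with the batch term, 1 of them at -1.05, and 2 were not, at -0.44 and 0.09. For Ldhb, a lactate dehydrogenase subunit, the brightest probe set changed by -0.60 ± 0.19 (adjusted p = 0.15) while 3 others were called at -0.94 to -1.14. The citric acid cycle gene Idh3b changed by -0.30 ± 0.15 (adjusted p = 0.38), and by -0.56 with an adjusted p of 0.034 in another probe set. Gstm1, a glutathione transferase, changed by -0.62 ± 0.17 (adjusted p = 0.085), and by -0.76 with an adjusted p of 0.029 in another.

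The following genes were called with the batch term, which removes a constant offset of replicate 3, and not by hour alone. Bex1, an X-linked adaptor gene, read 489.5, 315 and 169 at 0 h and 5184, 6057 and 227 at 48 h. Replicates 1 and 2 went up by 3.73 and replicate 3 by 0.37, so the hours overlapped, and the change of 2.61 ± 1.29 had an adjusted p of 0.37, or 0.0041 with the batch term and 0.0056 with the block. Apcdd1, a Wnt inhibitor, read 30.9, 24.6 and 436 at 0 h and 202, 280.5 and 877 at 48 h, high in replicate 3 at both hours (adjusted p = 0.00013 with the batch term, 0.43 without). Of its 4 other probe sets 1 was called with the batch term, and 3 were not, at 1.04, 0.13 and 0.10. Cav2, a caveolin, and Adamts5, a matrix protease, were likewise highest in replicate 3 at both hours, with changes of 1.67 ± 0.86 and 1.72 ± 0.53 (adjusted p = 0.0007 and 2.9e-05 with the batch term, 0.4 and 0.13 without). Apobec2, a muscle member of the cytidine deaminase family, read 178, 165 and 678 at 0 h and 927, 1062 and 1153 at 48 h and changed by 1.81 ± 0.51 (adjusted p = 0.0026 and 0.088). Cth, which makes cysteine, read 88, 77.8 and 228 at 0 h and 226, 248 and 1529 at 48 h, a rise that was largest in replicate 3 (adjusted p = 0.00097 and 0.22). On B the changes of Dhrs7c, a sarcoplasmic reticulum enzyme, Frem2, a basement membrane protein, and Tcp11x2 were 2.65 ± 0.65, 2.30 ± 0.57 and 2.16 ± 0.59 (adjusted p = 0.0079, 0.015 and 0.0088 with the batch term). With the replicate block in place of the batch term, Ccne1, Fgf21, Klhl41 and Ror1 were no longer called (adjusted p = 0.062, 0.056, 0.052 and 0.053), and the other genes described as called with the batch term were.

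Among falls of this kind, Selp, the adhesion receptor P-selectin, read 2124, 1951 and 923 at 0 h and 601, 723 and 109.5 at 48 h. Replicate 3 was lowest at each hour, and the change was -1.98 ± 0.65 (adjusted p = 1.8e-05 with the batch term, 0.15 without). Htra3, a secreted protease, read 1589, 2038 and 273 at 0 h and 256, 228 and 92.3 at 48 h and changed by -2.27 ± 0.75 (adjusted p = 3.8e-05 and 0.15). A second probe set was also called with the batch term, at -1.68, and another was not, at 0.19. Mycl, a Myc family factor, read 1276, 1315 and 622 at 0 h and 367, 367 and 144 at 48 h and changed by -1.80 ± 0.49 (adjusted p = 5.6e-07 and 0.077), with nearly equal steps of -1.74 and -1.91. Rgs4, which turns off G protein signals, changed by -1.97 ± 0.51 in its brightest probe set (adjusted p = 2.5e-05 and 0.064). Its 2 other probe sets were called by hour alone at -2.85 and -2.00 (adjusted p = 0.044 and 0.045). Plxnc1, a semaphorin receptor, changed by -1.84 ± 0.67 (adjusted p = 0.00098 and 0.19). On B, Dynap read 27294, 27629 and 6112 at 0 h and 9487, 9234 and 507 at 48 h, BC034090 changed by -2.00 ± 0.90 and the Wnt receptor Ror1 by -1.55 ± 0.47 (adjusted p = 0.0018, 0.0012 and 0.041 with the batch term).

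**Figure D3:**
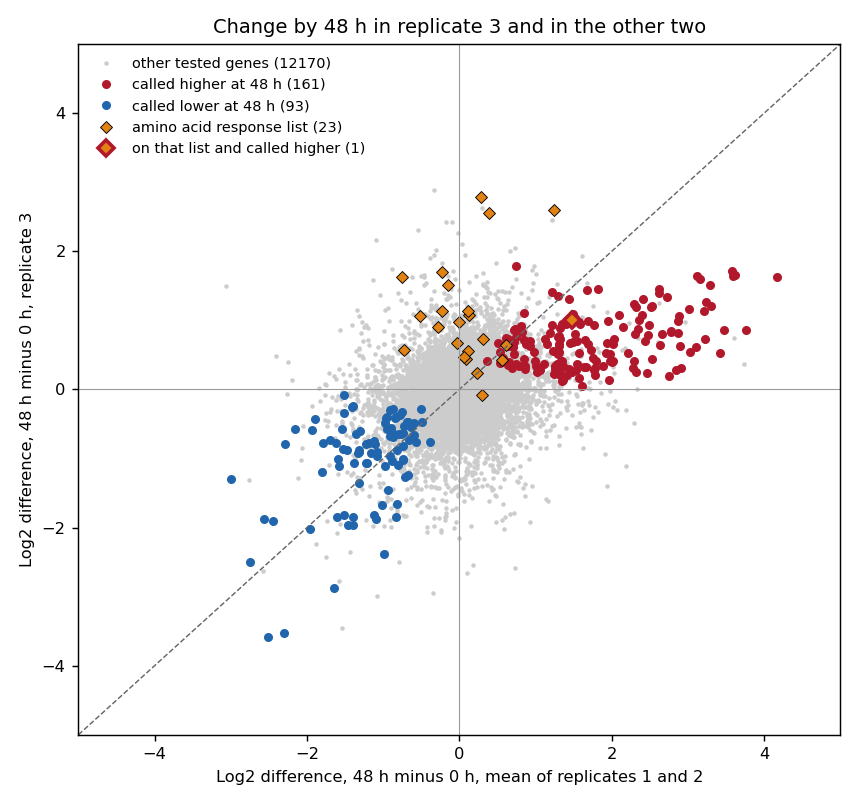
Log2 difference between 48 h and 0 h in replicate 3 (vertical) against its mean in replicates 1 and 2 (horizontal) for each of the 12446 genes. Red and blue points are genes called higher (161) and lower (93) by hour alone, diamonds are the 23 amino acid response genes, and the dashed line marks equal change. Of the red points 145 lie below the line, and 20 of the 23 diamonds lie above it.

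The difference in change between replicate 3 and the other replicates was tested as an interaction, taking the spread of replicate 3 to be that within replicates 1 and 2. Replicate 3 was set apart because its arrays differed in these data and has 1 array per hour on each chip, so its own spread was not measured. The calls describe this split and are not independent evidence for it. It was called for 243 probe sets on A (1.79%) and 75 on B (0.555%). Median centring gave 23 more positive and 18 more negative on B, against 32 and 43. By gene, 94 changes were more positive in replicate 3 (0.755%) and 114 more negative (0.916%). Of the 70 sarcomere genes 25 were more negative and 0 more positive, of 23 coupling genes 7 and 0, and of 20 energy genes 6 and 0. Among them Actn2 differed by -2.61 ± 0.24, Myh7 by -2.89 ± 0.28, Casq2 by -2.09 ± 0.19 and Cox8b by -2.56 ± 0.31 (adjusted p = 0.00047, 0.00047, 0.00047 and 0.0019). Of 23 amino acid response genes 8 were more positive and 0 more negative. In 20 of the 23 the change was more positive in replicate 3, and in Psat1, Phgdh and Slc7a5 it was more negative, by -0.13, -0.37 and -0.47. Asns and Shmt2 differed by 0.03 and 0.009 only. Of the genes of this list given here, all but Asns and Slc7a5 were named after their values were seen. The stress kinase-like gene Trib3 read 109.8, 125 and 156 at 0 h and 190, 117 and 1256 at 48 h, and the difference was 2.50 ± 0.36 (adjusted p = 0.0042). Chac1, which degrades glutathione, read 594, 712 and 469 at 0 h and 573, 533 and 1583 at 48 h, and Nupr1, a stress-induced chromatin protein, read 409, 452 and 254 at 0 h and 206, 284 and 840.5 at 48 h. Their differences were -0.22 and -0.76 in replicates 1 and 2 and 1.70 and 1.62 in replicate 3 (interaction adjusted p = 0.0023 and 0.0015). At 0 h replicate 3 exceeded the others by a median of 0.28 in this list, and at 48 h by 1.05.

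Other genes with large differences between replicates were Nefl, Snai2, Fzd6, Cthrc1 and Mn1. Nefl, a neurofilament subunit, read 274, 218 and 232 at 0 h and 919, 1131 and 69.7 at 48 h, so it was higher at 48 h in replicates 1 and 2 and lower in replicate 3, a difference of -3.33 ± 0.35 (adjusted p = 0.00074). The Schwann cell and neuron marker sum, with 3 of 7 markers tested, includes Nefl. It was 673.2, 595.7 and 689.9 at 0 h and 1830, 1993 and 419 at 48 h, and S100b and Mbp were too dim to test. Snai2, a zinc finger repressor of mesenchymal cells, read 459, 276 and 104 at 0 h and 218, 103 and 563 at 48 h and showed the opposite pattern, with 3.25 ± 0.53 (adjusted p = 0.0091). The Wnt receptor Fzd6 read 738, 415 and 239.6 at 0 h and 66.6, 97.5 and 348 at 48 h and differed by 2.89 ± 0.52 (adjusted p = 0.015). Another Fzd6 probe set, on B, went the other way, with -0.84 in replicates 1 and 2 and -1.70 in replicate 3. Cthrc1, a secreted collagen triple helix protein on B, read 11601, 11870 and 24.1 at 0 h and 1392, 1320 and 168 at 48 h. At 0 h replicate 3 was far dimmer than the others and below the B pseudocount of 54.4, so it could not show a fall like theirs. The difference was 4.57, and the step of replicate 3 in it depends on the pseudocount. Mn1, a transcriptional cofactor, read 738, 644 and 164 at 0 h and 519.9, 549.6 and 1563 at 48 h and differed by 3.23 ± 0.34 (adjusted p = 0.0046).

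Levels at the hours between place the 48 h values, as means ± SD of 3 arrays and without a test. Mef2c was at 1148 ± 457, 4279 ± 1137 and 4808 ± 1647 for 0, 24 and 48 h in turn. Actn2 was at 823 ± 574, 3357 ± 284 and 4722 ± 1743. Cd36 stood at 43.1 ± 16.4, 144 ± 22.3 and 439 ± 169, and Dcx at 74.5 ± 39.1, 144 ± 131 and 599 ± 165. Smoc2 was already at 101 ± 58.2 at 24 h. Some genes had 24 h means above both ends. Ckm went from 923 ± 361 through 2782 ± 544 to 1267 ± 102, Cdkn1c from 1934 ± 858 through 5229 ± 2233 to 1222 ± 127, and Fgf21 from 552 ± 188 through 3025 ± 1275 to 843 ± 80.3. Igf1 showed 149 ± 58.8, 341 ± 45.1 and 129 ± 23.9, and Mef2d 960.4 ± 32, 1905 ± 460.4 and 1172 ± 139. Cell cycle genes went the other way. The log2 of the 48 h mean exceeded that of the 24 h mean by a median of 0.45 in S phase genes and 0.50 in mitosis genes. Top2a read 402, 433 and 1886 at 24 h, in each replicate below its values at 0 h and 48 h.

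**Figure D4:**
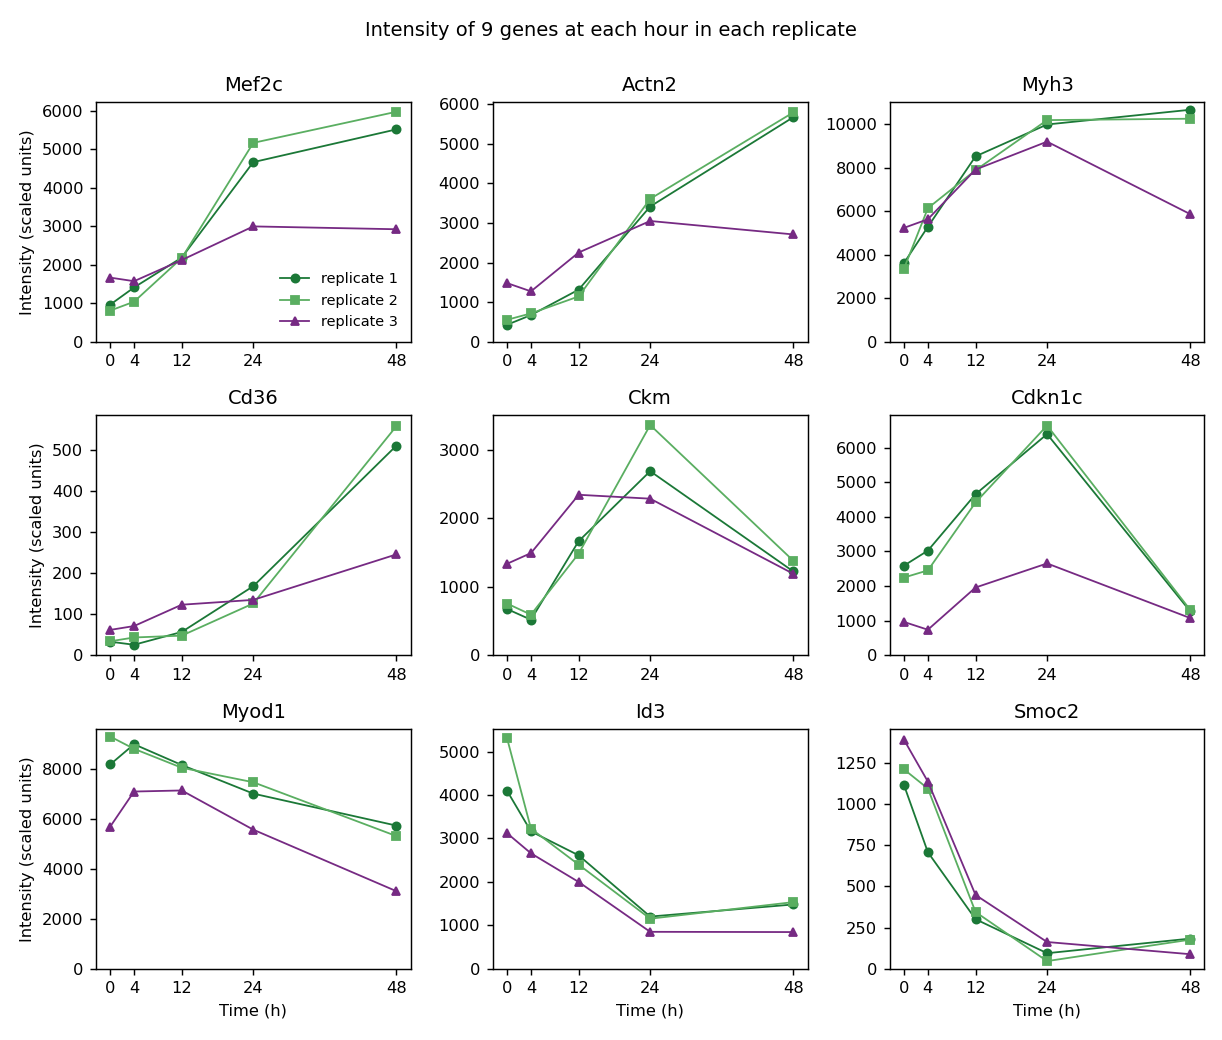
Intensity of 9 genes (vertical, from 0) against time in hours (horizontal), with 1 line per replicate. Mef2c, Actn2, Myh3 and Cd36 end higher at 48 h than at 0 h, Ckm (in replicates 1 and 2) and Cdkn1c are highest at 24 h, and Myod1, Id3 and Smoc2 end lower in each replicate.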

How the data were processed

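The authors deposited 1 intensity per probe set for each array, per the labels from total RNA run by the manufacturer's standard protocol. The summarising algorithm is not given in the sources used here. The 2%-trimmed means show that arrays were scaled as a whole, which hides any change in total RNA. Each chip was fitted on its own over its 15 arrays with limma 3.58.1 in R 4.3.3: log2(intensity + the 20th percentile), the upper 60% of probe sets by mean over all arrays without control probe sets, hour as factor, trended eBayes and Benjamini-Hochberg adjustment, called at an adjusted p under 0.05. Further fits added replicate 3 as a batch term, its interaction with hour, or the replicate number as a block. The scripts were tested on simulated data. Of 22690 probe sets on A and 22575 on B, 20380 and 14661 have 1 gene symbol in the platform annotation, 691 and 245 several and 1555 and 7605 none. A gene is represented by its brightest probe set.

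Named genes were, by rule, the called genes with the largest changes whose arrays did not overlap (15 each way on A, 6 on B), those called only with the batch term (6 and 3 each way), a fixed set of regulators and markers, the 4 list members with the lowest adjusted p, 2 called against the list's majority, the largest interactions, and other probe sets on the other side of the threshold. Members and lists were chosen with earlier results of these data known. The labels give the same replicate numbers at every hour. Deviations of same-numbered arrays at 0 h and 48 h correlated by 0.105, 0.123 and 0.479 on A, where numbers were taken to pair arrays, and by 0.122, 0.038 and 0.228 on B, where they were not. On A, replicates 1 and 2 correlated more across numbers, by 0.34 and 0.389, so the pairing there rests mainly on replicate 3. The block by replicate number was still fitted on both chips, so its counts for B use a pairing that was not taken to hold there. Alternatives were other pseudocounts, filters and normalizations, array weights, no trend, fewer hours and each array left out.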

Additional observations from a re-analysis of the deposited data

Results flagged for a closer look

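The change from 0 h to 48 h differed between replicate 3 and replicates 1 and 2 for 243 probe sets on A and 75 on B, by the interaction term of the limma fit. These 3 replicates belong to 1 group at each hour, so the difference is between arrays of the same label. Values below are replicate 3 minus the mean of replicates 1 and 2, in log2 units, for genes named for the size of their change or fixed by name that were called in this test. Called list members, such as Casq2 and Cox8b, are not repeated here.

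Most were rises that were smaller in replicate 3. Myosin heavy chains Myh8, Myh7 and Myh3 differed by -2.54, -2.89 and -1.41. The Z-disc genes Actn2 and Myoz2 differed by -2.61 and -2.10, Lmcd1 by -1.86 and the calpain Capn3 by -1.84. Calsequestrin Casq1 differed by -2.07 and the sarcoplasmic reticulum enzyme Dhrs7c by -2.85. Cox6a2 and Fabp3, of energy supply, differed by -1.97 and -2.50. Mef2c differed by -1.86, Fn3k by -2.89, Prkg1 by -2.49, Ablim3 by -2.28, Apobec2 by -1.60 and Bex1 by -3.36.

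Falls that were larger in replicate 3 were those of Islr at -1.22, AY036118 at -1.39, Selp at -1.19 and Dynap at -1.91, and the fall of Csrp1 was smaller there, at 1.47. Nefl was higher at 48 h in replicates 1 and 2 and lower in replicate 3, at -3.33. The opposite held for Cdkn1c at 1.04, Snai2 at 3.25, Fzd6 at 2.89 in its brightest probe set, Cthrc1 at 4.57 and Mn1 at 3.22. For Cthrc1, replicate 3 at 0 h was below the pseudocount of 54.4 on B, so the size of its rise depends on that setting. The Fzd6 probe set on B instead fell by more in replicate 3 than in the others. Cth rose in all replicates and by 1.35 more in replicate 3. With 1 array of replicate 3 at each hour on each chip, its own spread was not measured.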

How the results depend on the processing

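By hour alone the A chip had 292 calls. It had 54 with the 0 h and 48 h arrays only, 1257 with array weights, 1329 with the batch term, 1678 in replicates 1 and 2 alone, 174 where a change of at least 2-fold was also required, and 44 to 431 with each array left out. The B chip had 152. It had 22, 758, 708 and 854 in the first 4 of these settings, 99 with no trend and 11 to 267 with each array left out. The replicate number as a block gave 1224 on A and 659 on B, and it kept all 292 and 152 calls. With the batch term A had 1329 calls, and 687 with the 0 h and 48 h arrays only, 335 at 2-fold and 601 to 1511 with each array left out. B had 708, and 1204 with array weights, 391 with no trend, 294 at 2-fold and 290 to 797. The interaction gave 243 on A and 146 with no filter, and 75 on B and 41 with median centring, 43 with no filter and 4 with no trend. Median centring shifted the interaction on B by 0.10. Among genes called by hour alone, another probe set turned the sign of Dtna to -0.12 and of Ncam1 to -0.42 and -0.091. Among genes called with the batch term only, it did so for Htra3 (0.19) and Rbm24 (0.09), among others. For 262 named genes, 208 of them tested in the upper 40%, 19 settings kept the gene's own probe set. In these settings 0 genes had their call replaced by a call in the opposite direction. Changes of sign in uncalled genes near 0, such as Mef2a at -0.01, are not in that count. Leaving out an array of replicate 1 or 2 removed 51 to 58 of the named genes' calls, and the batch term added 73. Of 1000 list medians, 50 lists under these 19 settings and averaging all probe sets per gene, 925 moved by less than 1 SD between replicates. The causes were not tested. With 3 arrays an hour, dim probe sets limit what can be called: the lowest mean intensity tested was 96.7 on A and 153.5 on B.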
